A study of Citrus unshiu with 2 samples.

Results

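The 108 genes described here are those of the authors' annotated table of 2568 genes whose reference description contains the word chloroplastic and holds none of a set of words for other plastid proteins. Those words cover photosystem, antenna, electron carrier and Rubisco proteins, ribosomal and translation proteins, fatty acid synthase parts, redox proteins, chaperones, transporters, proteases and P450 enzymes. They were taken from 170 genes described as chloroplastic, of which the other 62 were left out by those words, and from 23159 genes with an expression value in all. The word is part of the name of the matched reference gene, so it records an annotated location of the protein and not one measured here. Judged by name, 63 of the 108 are enzymes, and 45 are other plastid proteins such as import, assembly, RNA-binding and thylakoid lumen proteins, so the members are called chloroplast-targeted genes rather than enzymes.

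Expression was measured by RNA-seq in mature stems of shoots from wild-type Citrus unshiu trees (satsuma mandarin) at Day 75, under light drought and under normal water. Light drought trees stood in soil that dried naturally to a moisture of about 15%, and control trees were watered normally. All trees grew under a plastic tunnel with roots held in a limiter, and 20 trees were set aside for each treatment. Each group has 1 library, the number of trees behind it is not given in the labels, and no difference below has a replicate check or a test of the conditions. The light drought library held 31760704 reads in genes and the control library 32856618.

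Chloroplasts fix carbon in the Calvin cycle, store part of it as starch, and make chlorophyll, carotenoids, fatty acids and several amino acids. Most of the enzymes are encoded in the nucleus, made in the cytosol and imported through the envelope complexes named TOC and TIC. Green stem tissue holds chloroplasts too, while starch-storing cells of the same stem hold amyloplasts, which use several of the same genes. In such bulk tissue, fewer cells of a type and less RNA per cell cannot be told apart.

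Values are RPKM, reads scaled to gene length and to the library's total of reads in genes, as deposited by the authors. The change is log2((light drought + 0.5)/(control + 0.5)), called the log2 ratio, which understates the change of low genes. A gene was kept where RPKM was at least 1 in either library, which held for 99 of the 108 members. The counting interval is the exact 95% interval of the log2 RPKM ratio from the reads behind the values, without the pseudocount, and covers counting error only.

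Entry into the annotated table was tied to the size of the change. For 20 members the authors' deposited table gives statistics of this comparison, and for 88 it gives none, on grounds not given in the sources used here. Of the kept members without statistics, 12.2% had a log2 ratio within 0.25 of 0, as did 21.3% of kept described non-members without statistics, against 72.0% of kept genes outside the table. Lying away from 0 thus went with listing in the table and is not read as a trait of the members. Direction and shares past a fold limit are given beside those of other listed genes. Of all kept genes of the table, 43.6% had a ratio above 0, and whether listing depended on direction is not known.

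Of the 99 kept members, 74 had a log2 ratio above 0 and 25 below 0 in light drought stems. A ratio above 0 was seen for 42.1% of the 1274 kept described genes that are not members, and for 50.4% of all 15654 kept genes. The median was 0.42 for the members, -0.27 for the described non-members and 0.0024 for all kept genes. The chloroplastic genes left out by the rule, such as photosystem and ribosomal protein genes, had 53 of 62 ratios above 0 and a median of 0.52. Among described genes of mitochondrial proteins, 5 of 17 had a ratio above 0, with a median of -0.29.

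**Figure D1:**
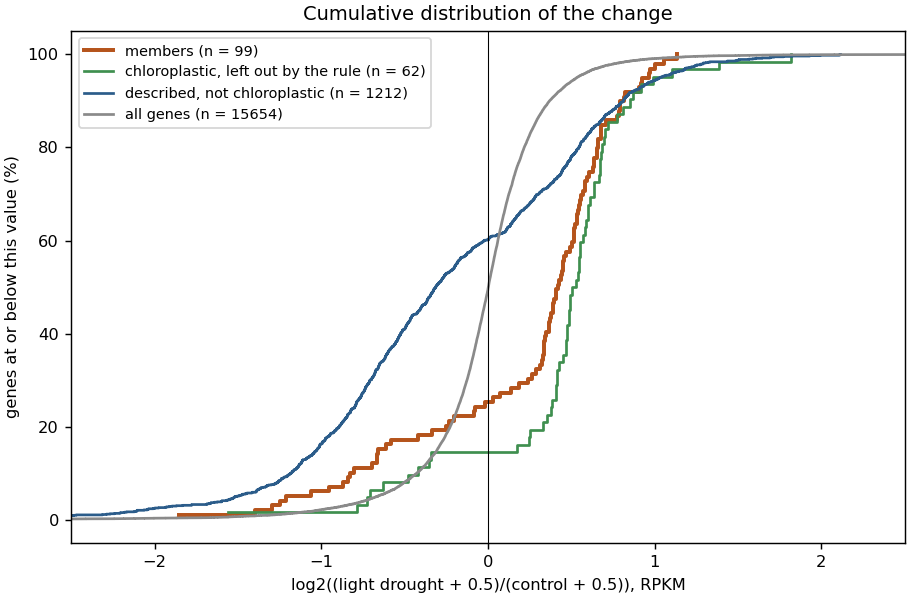
Cumulative share of kept genes (vertical axis, %) at or below each log2 ratio of light drought over control (horizontal axis) for the 99 members, the 62 chloroplastic genes left out by the rule, 1212 described genes that are not chloroplastic, and all 15654 genes. At 0, 25 of the 99 members and 9 of the 62 left-out chloroplastic genes lie to the left, and the members' median is 0.42.

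Few members lay 2-fold or more from the control level. At least 2-fold higher in light drought were 3 of 99, and at least 2-fold lower were 6 of 99. The count of higher genes was 7 with a pseudocount of 0.1 and 1 with a pseudocount of 1. The same rule took 0.882% of all kept genes as higher and 2.12% as lower, and 5.57% and 15.5% of the described non-members, so the members' shares of 3.03% and 6.06% lay under those of the other genes of the same table. At 1.5-fold, 27 members were higher and 16 lower, where described non-members gave 18.9% higher and 35.2% lower and all kept genes 4.03% and 6.16%. The authors' deposited table gives statistics for 9 members with a fold change above 0 (8.33% of the 108) and 11 below 0 (10.2%). For the described non-members these shares were 9.34% and 23.2%. Of all 2568 genes of that table, 238 had statistics with a fold change above 0 and 582 below 0. These counts carry no cut on the false discovery rate. For the members with statistics, the deposited log2 fold changes nearest to 0 were -1.01 (Cs2g03260) and 1.03 (Cs4g05250), so all were past 2-fold. Those fold changes lay close to the RPKM ratio without the pseudocount. The counts of 9 and 11 are thus on another scale than the 3 and 6 above.

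**Figure D2:**
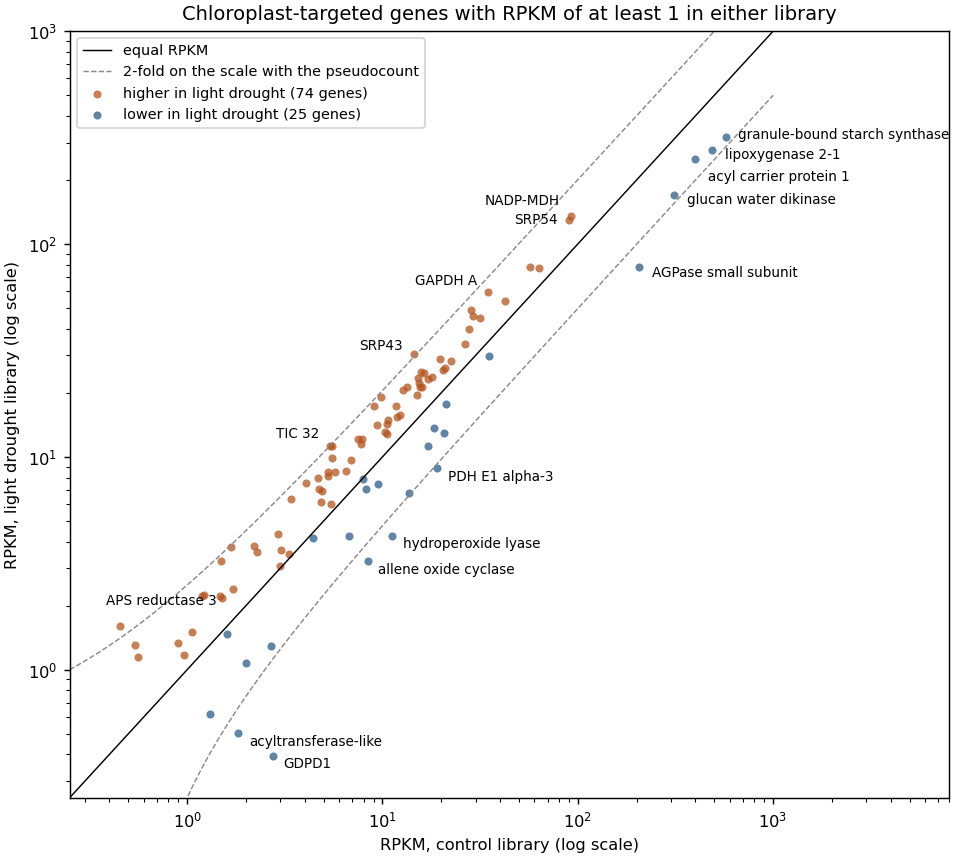
RPKM of the 99 kept members in the light drought library (vertical, log scale) against the control library (horizontal, log scale), 1 point per gene, with the 2-fold limits of the scale with the pseudocount as dashed lines. Orange points (74 genes) lie above the line of equal RPKM and blue points (25 genes) below it, and 5 of the 7 most abundant members lie below it.

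Shares above 0 differed between kinds of protein and stood apart in the most abundant genes. Of kept members with enzyme names, 35 of 58 had ratios above 0, with a median of 0.36, and of the others 39 of 41, with a median of 0.45. The 7 members with a mean RPKM of 100 or more had a median of -0.80, and 5 of them were lower in light drought. Of the less abundant members, 20 of 27 had ratios above 0 under a mean RPKM of 5, 34 of 46 from 5 to 20 and 18 of 19 from 20 to 100. The 7 summed to an RPKM of 1361 in light drought and 2157 in the control. Members together took 0.683% of reads in light drought and 0.867% in the control, so the set was lower in total although most of its genes were higher. The 5 abundant lower genes summed to an RPKM of 1096 in light drought and 1975 in the control. The other 103 members together were higher, at 1645 in light drought and 1248 in the control.

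Text patterns sorted the members into 9 role groups by description. Medians above 0 were found for tetrapyrroles (0.48, 8 kept genes), electron flow and redox (0.52, 11), plastid gene expression and structure (0.52, 16), isoprenoids and carotenoids (0.39, 6) and the genes no pattern took (0.45, 25). Medians below 0 were found for lipids and oxylipins (-0.67, 14 kept genes) and starch, sugar and organic acids (-0.42, 13). The 5 amino acid genes had a median of -0.09, which turned to 0.22 with a minimum RPKM of 5, and 1 kept gene stood in the nitrogen and cofactor group. The patterns misplaced some genes, among them a pyruvate dehydrogenase component in the amino acid group and a sulfate-assimilation reductase in the redox group. The smaller sets used below were assembled by function after the values had been seen. They hold members only, so they do not cover every gene of a pathway or complex.

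**Figure D3:**
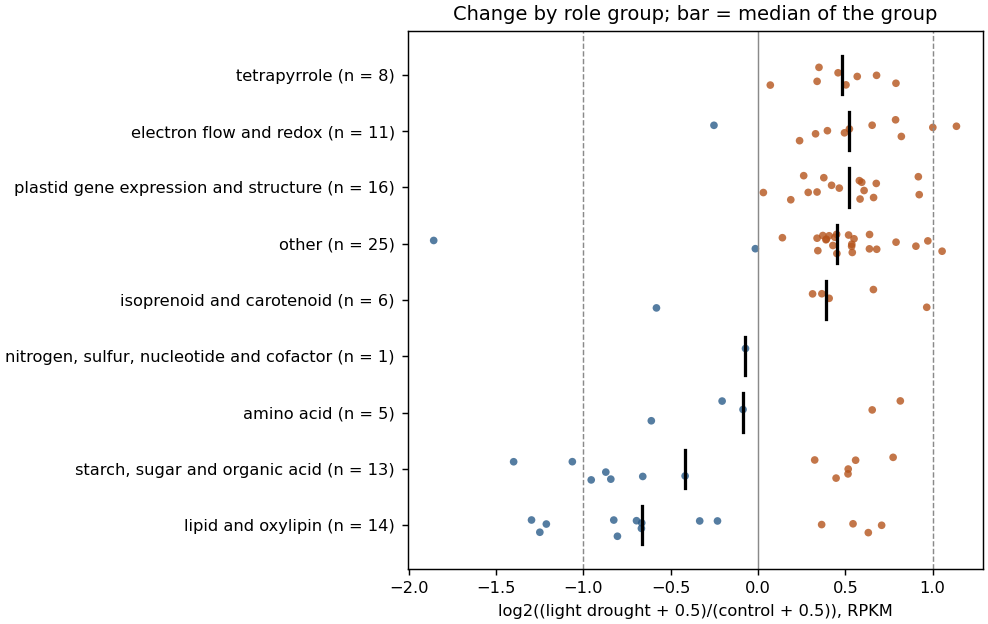
Log2 ratio of light drought over control (horizontal axis) of each kept member by role group, 1 point per gene, with the group median as a black bar and dashed lines at 2-fold. All kept tetrapyrrole and plastid gene expression genes lie right of 0, while the starch and sugar group splits, with 6 genes above 0 and 7 below.

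All 4 starch genes among the members were lower in light drought stems. The small subunit of ADP-glucose pyrophosphorylase (Cs2g18800, glucose-1-phosphate adenylyltransferase small subunit 2), whose enzyme makes the ADP-glucose from which starch is built, was at RPKM 77.6 in light drought and 206 in the control. Its log2 ratio was -1.40, with a counting interval of -1.45 to -1.36, and it was the most abundant member past 2-fold. The gene lies on chromosome 2, from 15556311 to 15559669, in 9 exon blocks.

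Granule-bound starch synthase 1 (orange1.1t00566), which makes amylose, was the most abundant member, at 319 in light drought and 572 in the control (-0.84, interval -0.86 to -0.82). Alpha-glucan water dikinase (Cs7g09060), which phosphorylates starch and so opens it to breakdown, was at 170 in light drought and 312 in the control (-0.87). Genes for making and for opening starch granules were thus lower together. The large subunit of ADP-glucose pyrophosphorylase (Cs3g25110) differed least, at 13.6 in light drought and 18.4 in the control (-0.42). The genes Cs7g09060 and Cs3g25110, share 12.9% and 32.9% of their length with a gene model on the opposite strand that was lower in light drought too (Cs7g09070 at 86.9 in light drought and 137 in the control, and Cs3g25100 at 40.1 in light drought and 66.3 in the control), and whether strand was used in counting is not given. The part of these neighbours in the result was not tested.

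The plastid pyruvate dehydrogenase complex turns pyruvate into the acetyl-CoA used for fatty acids, and all 4 of its member genes were lower. They are described as the alpha and beta subunits of its E1 component and as an acetyltransferase component. The E1 alpha-3 subunit (Cs5g01270, chromosome 5, 251941 to 252537) was at 8.87 in light drought and 19.1 in the control (-1.06, interval -1.43 to -0.79). The model of Cs5g01270 is 426 bases long, against a median of 1845 for the members, and may cover only part of a gene. Both genes described as E1 beta-3 were lower, Cs2g03260 at 6.78 in light drought and 13.6 in the control (-0.95), and Cs8g06950 at 13.0 in light drought and 20.8 in the control (-0.66). These 2 genes share 1 reference record, so reads may have been split between them. The acetyltransferase component 4 (Cs7g13170) was at 4.26 in light drought and 6.77 in the control (-0.61). Acyl carrier protein 1 (Cs9g05030), which holds the growing fatty acid chain and stayed a member because its name lacks the hyphen the rule looks for, was at 251 in light drought and 400 in the control (-0.67).

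Oxylipins are signal and defence compounds made from membrane fatty acids, among them jasmonate. Of the 8 genes counted here, 2 phospholipase A1 genes included, 7 were lower. A linoleate 13S-lipoxygenase (orange1.1t03773), the enzyme that oxygenates the fatty acid first, was at 278 in light drought and 486 in the control (-0.80, interval -0.83 to -0.79). Fatty acid hydroperoxide lyase (Cs2g21000, chromosome 2, 17909510 to 17913501), which cuts the product to short aldehydes, was at 4.27 in light drought and 11.2 in the control (-1.30, interval -1.63 to -1.16). The 1 gene above 0 was a second lipoxygenase of the same description (orange1.1t04376), low in both libraries, at 1.50 in light drought and 1.05 in the control. A pair of phospholipase A1 genes, of the enzyme type that frees fatty acids from membranes, had ratios of -0.83 (Cs2g30480) and -0.67 (Cs5g08030).

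Allene oxide cyclase, a step of jasmonate synthesis, is described for 3 members, and they differed in size of change. The gene Cs6g18910 (chromosome 6, 18908011 to 18909469) was at 3.24 in light drought and 8.39 in the control (-1.25, interval -1.70 to -1.05). Its neighbour on chromosome 6, Cs6g18900, was the most abundant copy, at 29.7 in light drought and 35.0 in the control (-0.23, interval -0.33 to -0.14). On chromosome 7, Cs7g12890 was at 7.42 in light drought and 9.48 in the control (-0.33, interval -0.59 to -0.12). The counting interval of Cs6g18910 did not overlap those of the other copies.

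**Figure D4:**
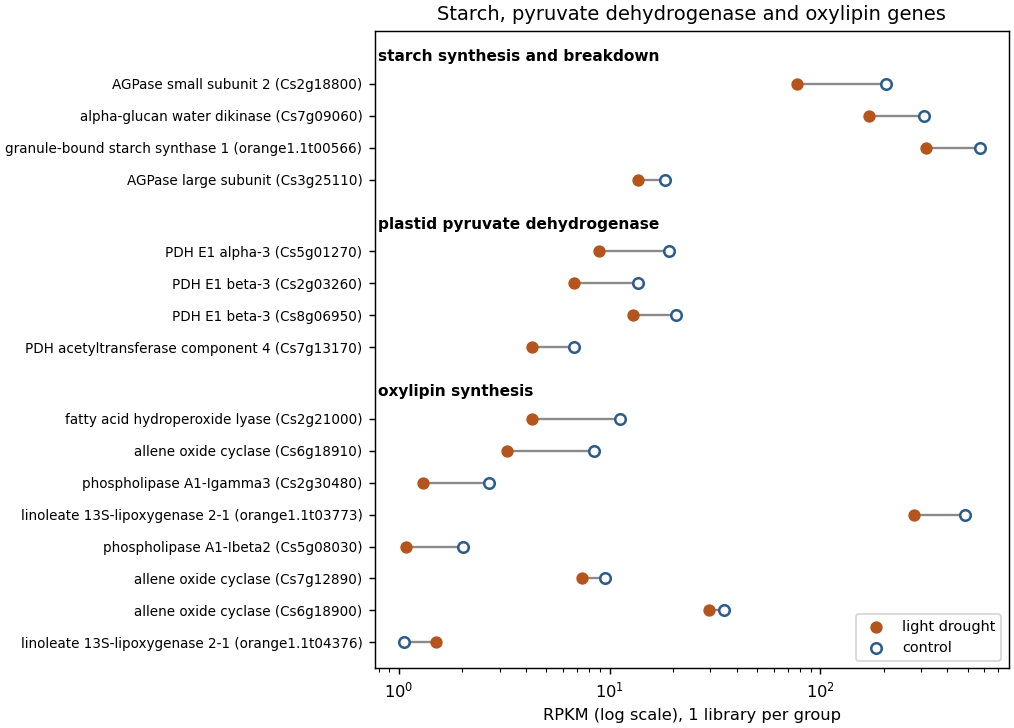
RPKM (log scale) of the starch, plastid pyruvate dehydrogenase and oxylipin genes in the light drought library (filled points) and the control library (open points), 1 library per group, with no error bars. Of the 16 genes, the filled point lies left of the open one for all but the lipoxygenase orange1.1t04376.

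Other lipid genes lay on both sides of the control level. Desaturases, which add double bonds to the fatty acids of plastid membranes, were higher, the omega-6 desaturase (Cs8g17450) at 17.3 in light drought and 11.7 in the control (0.54) and fatty acid desaturase 4 (Cs4g10710) at 7.93 in light drought and 4.66 in the control (0.71). Monogalactosyldiacylglycerol synthase 2 (Cs4g05250), of the enzymes that make the main galactolipid of plastid membranes, was at 1.14 in light drought and 0.560 in the control (0.63). Of 2 neighbouring acyltransferase-like genes, Cs2g14100 (chromosome 2, 10855816 to 10857203) was at 0.503 in light drought and 1.82 in the control (-1.21) and Cs2g14090 at 0.620 in light drought and 1.31 in the control (-0.70). They rest on few reads, 12 and 26 in light drought.

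The lowest log2 ratio of all members, -1.86, belonged to glycerophosphodiester phosphodiesterase GDPD1 (Cs2g13910, chromosome 2, 10606505 to 10608689), of a family that breaks down deacylated phospholipids. It was at 0.395 in light drought and 2.74 in the control, from 22 reads in light drought and 158 in the control. The counting interval of the RPKM ratio was -3.51 to -2.15, and the authors' deposited table gives a log2 fold change of -2.79.

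The kept Calvin cycle members went the other way from the starch members. Glyceraldehyde-3-phosphate dehydrogenase A (Cs2g14940), which reduces the first product of carbon fixation, was at 59.7 in light drought and 34.7 in the control (0.77, interval 0.70 to 0.86). Sedoheptulose-1,7-bisphosphatase (Cs7g31640), of the part of the cycle that regenerates the carbon acceptor, was at 22.2 in light drought and 15.4 in the control (0.52). The triose phosphate/phosphate translocator (Cs2g05530), which exports the fixed carbon to the cytosol, was at 39.8 in light drought and 27.7 in the control (0.52). The 4 kept genes of this set were all higher, by less than 2-fold. Fructose-1,6-bisphosphatase (Cs6g07430) had the smallest ratio of them, 0.32, and shares 64.9% of its length with an opposite-strand model (Cs6g07440, at 11.5 in light drought and 9.21 in the control), whose part in the value was not tested.

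A transketolase (Cs7g24920), an enzyme of the same cycle, stood under the expression minimum and was lower. It was at 0.0518 in light drought and 0.702 in the control, from 4 reads in light drought and 56 in the control (counting interval -5.68 to -2.32). NADP-malate dehydrogenase (Cs7g21820), which exports reducing power as malate, was at 136 in light drought and 92.3 in the control (0.56). Pyruvate, phosphate dikinase (Cs9g05370), which makes phosphoenolpyruvate, was at 6.89 in light drought and 4.92 in the control (0.45).

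Photorespiration genes were higher as well in the 3 that were kept. Phosphoglycolate phosphatase 1B (Cs6g05110), the first step of that pathway, was at 12.1 in light drought and 7.83 in the control (0.59). Glutamine synthetase, leaf isozyme (Cs9g05680), which recaptures the ammonium it releases, was at 24.9 in light drought and 15.7 in the control (0.65). Glyoxylate/succinic semialdehyde reductase 2 (Cs1g18280), which removes glyoxylate, was at 4.33 in light drought and 2.93 in the control (0.49, interval 0.21 to 0.92).

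The chlorophyll synthesis genes among the members were higher except at the step that makes the phytol tail. Magnesium chelatase puts the metal into the ring, and its subunit ChlH (Cs9g13460) was at 78.1 in light drought and 56.7 in the control (0.46, interval 0.42 to 0.50). The subunit ChlI (Cs2g05100) was at 53.9 in light drought and 42.5 in the control (0.34). The next enzymes of the pathway had ratios of 0.35 for the ring cyclase (Cs6g16200) and 0.79 for the 8-vinyl-reductase (Cs9g04920), which was at 9.92 in light drought and 5.53 in the control. Geranylgeranyl diphosphate reductase (Cs2g26780), which makes the phytyl chain of chlorophyll and tocopherol, was at 11.3 in light drought and 17.2 in the control (-0.58, interval -0.78 to -0.42).

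Of 2 genes described as pheophytinase, an enzyme of chlorophyll breakdown, orange1.1t04703 was at 14.2 in light drought and 9.41 in the control (0.57). The other, orange1.1t05033, was at 3.51 in light drought and 3.32 in the control, and its counting interval of -0.35 to 0.52 included no change. Neighbours Cs9g02990 and Cs9g03000, both described as protochlorophyllide-dependent translocon component 52, had ratios of 0.50 and 0.68. The tetrapyrrole-binding protein (Cs5g22660) had a ratio of 0.43.

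All 6 members assigned to the NDH complex, which cycles electrons around photosystem I, and to the ATP synthase had ratios above 0. Subunits that are not members are not covered by this count. NDH subunit B 4 (Cs5g10850) was at 49.1 in light drought and 28.3 in the control (0.79). ATP synthase gamma chain (Cs2g03080) was at 21.4 in light drought and 13.4 in the control (0.65), and subunit b' (Cs7g05570) at 25.7 in light drought and 20.3 in the control (0.33). The smallest ratio was 0.24, for NDH lumenal subunit 2 (Cs7g03580), with a counting interval of -0.18 to 0.73. The thylakoid K(+) efflux antiporter 3 (Cs8g03110), which in Arabidopsis adjusts the proton gradient that drives this synthase, was at 17.4 in light drought and 9.07 in the control (0.90).

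The chloroplast signal recognition particle carries antenna proteins to the thylakoid membrane, and both of its proteins were higher. Its 43 kDa protein (Cs8g01970, chromosome 8, 600098 to 601861, a single exon block) was at 30.5 in light drought and 14.4 in the control, a log2 ratio of 1.05 (interval 0.96 to 1.20), 1 of the 3 members past 2-fold. Its 54 kDa protein (Cs6g14460) was at 129 in light drought and 90.1 in the control (0.52). The inner membrane protein PPF-1 (Cs8g18220), of the family that inserts the delivered proteins, was at 21.3 in light drought and 15.6 in the control (0.44). A set of 7 psbP-type and other lumen proteins lay between 0.38 and 0.92, with a thylakoid lumen protein (orange1.1t02579) highest, at 3.26 in light drought and 1.49 in the control. In this set, Cs3g14130 shares 100% of its length with the opposite-strand model Cs3g14120. Likewise Cs3g15420 shares 90.4% with Cs3g15430, at 2.32 in light drought and 1.79 in the control. The part of these models in the values was not tested.

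**Figure D5:**
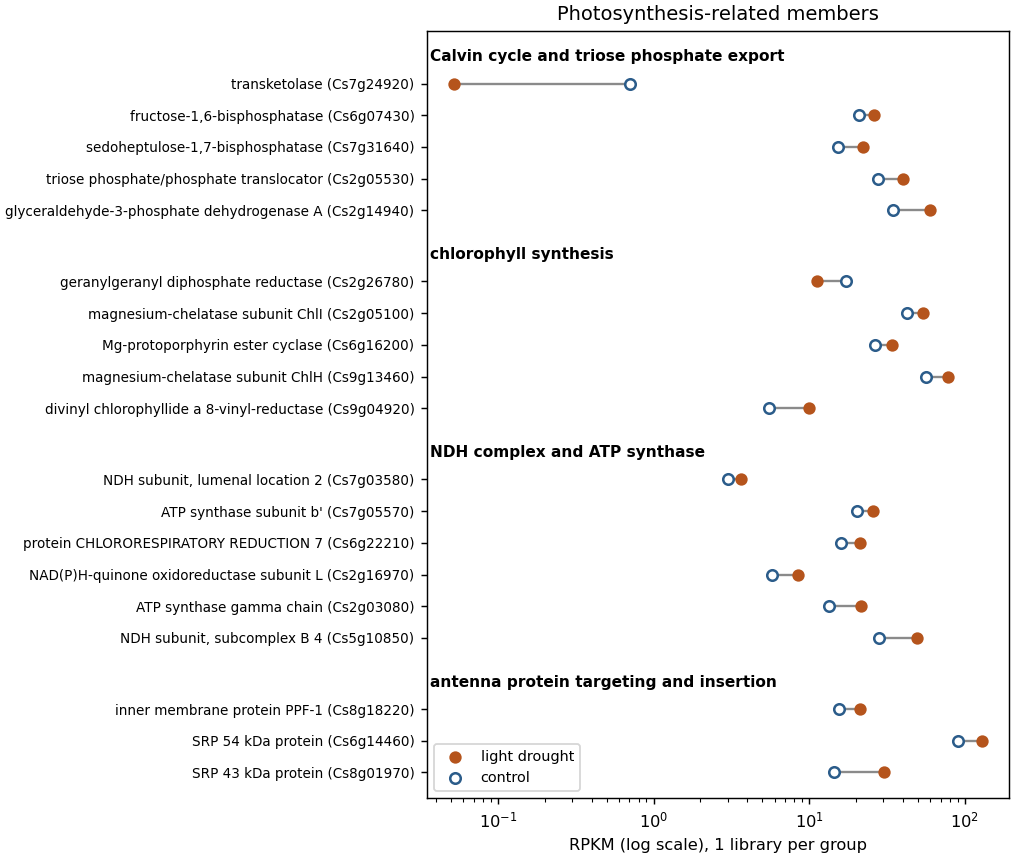
RPKM (log scale) of the Calvin cycle, chlorophyll synthesis, NDH and ATP synthase, and antenna insertion genes in the light drought library (filled points) and the control library (open points), 1 library per group, with no error bars. The filled point lies right of the open one for every gene shown except transketolase Cs7g24920 and geranylgeranyl diphosphate reductase Cs2g26780.

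Import components were near or above the control level. The short-chain dehydrogenase TIC 32 is described for 2 genes, and Cs5g05870 (chromosome 5, 3588064 to 3590907) was at 11.3 in light drought and 5.39 in the control, a log2 ratio of 1.00 that passed 2-fold by a narrow margin and lost it with equal sums (0.98), with the all-gene median set to 0 and with a pseudocount of 1 (0.94). The other, Cs9g17650, was at 1.34 in light drought and 0.894 in the control (0.40, interval -0.06 to 1.23). The receptor TOC34 (Cs6g10920, translocase of chloroplast 34) had a ratio of 0.39. TIC 62 is described for 2 genes that share a reference record, Cs5g28460 at 0.19 and Cs3g02440 at 0.03, and that of Cs3g02440 turned to -0.0062 when both libraries were rescaled to equal sums.

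All 11 kept members assigned to plastid RNA and translation had ratios above 0, from 0.26 to 0.97. The highest was the 28 kDa ribonucleoprotein (Cs9g09170), an RNA-binding protein, at 3.76 in light drought and 1.67 in the control (0.97). The ribosome-binding factor PSRP1 (orange1.1t02570) was at 19.1 in light drought and 9.84 in the control (0.92), with 52.5% of its length shared with an opposite-strand model (orange1.1t02569, at 3.52 in light drought and 3.01 in the control). The sigma factor sigD (Cs7g02120), which directs the plastid RNA polymerase, had a ratio of 0.61, but all of its length is shared with an opposite-strand model (Cs7g02110, at 14.6 in light drought and 10.3 in the control).

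Of the 6 kept isoprenoid and carotenoid genes, 5 had ratios above 0, and the exception was geranylgeranyl diphosphate reductase (Cs2g26780), given above. The beta-carotene isomerase D27 (Cs5g01410), which starts strigolactone synthesis, was at 11.2 in light drought and 5.51 in the control (0.97, interval 0.84 to 1.22), just under 2-fold. Violaxanthin de-epoxidase (Cs5g26080), which makes zeaxanthin in excess light, was at 12.1 in light drought and 7.47 in the control (0.66). Phytoene synthase 2 (orange1.1t02108), which opens the carotenoid pathway, was under the minimum, at 0.393 in light drought and 0.171 in the control.

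Among amino acid and sulfur genes, 5'-adenylylsulfate reductase 3 (Cs4g10150, chromosome 4, 6813646 to 6815712), a control step of sulfate assimilation, had the highest log2 ratio of all members, 1.14. It was at 1.60 in light drought and 0.454 in the control, from 68 reads in light drought and 20 in the control (interval 1.08 to 2.61). Branched-chain-amino-acid aminotransferase 2 (Cs3g16440) was at 6.34 in light drought and 3.39 in the control (0.81). The counting interval included no change for arogenate dehydrogenase 1 (Cs4g05200, -0.09), which leads to tyrosine, and beta carbonic anhydrase 1 (Cs2g28060, -0.08). Choline monooxygenase (Cs4g04310), which starts glycine betaine synthesis in some plants, was at 17.7 in light drought and 21.2 in the control (-0.25).

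The other genes of the table that the same patterns took, with no chloroplastic in their description, were set beside the members. All 1212 kept described genes without that word had a median of -0.31, with 39.9% above 0, 68 at least 2-fold higher and 197 lower. Of 41 kept starch, sugar and organic acid genes of this kind, 9 had ratios above 0, 2 were at least 2-fold higher and 11 lower, with a median of -0.55. Of 32 kept lipid genes 8 had ratios above 0, 2 were at least 2-fold higher and 9 lower, with a median of -0.51. Of 43 kept amino acid genes 17 had ratios above 0, 2 were at least 2-fold higher and 10 lower, with a median of -0.17. Matching was by words only, so not every gene counted here need belong to the pathway. Of 9 kept nitrogen, sulfur, nucleotide and cofactor genes 1 had a ratio above 0, none was at least 2-fold higher and 1 was at least 2-fold lower, with a median of -0.52. The 2 kept tetrapyrrole and 2 kept isoprenoid genes of this kind were too few to describe.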

How the data were processed

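Stem RNA was prepared with TRIzol and a stranded mRNA kit from 2 µg of total RNA, per the labels' protocols. Trimmomatic 0.36 is listed, per the submitters' processing notes. Aligner, counter, strand setting and genome build were not given in the sources used here, and coordinates are as in the files. RPKM values were deposited by the authors for 23159 genes. Multiplied by gene length, they gave whole reads within 0.01 read for 100% of values above 0. A second deposited table describes 2568 genes and gives, for 820, a p-value, a false discovery rate (up to 0.251) and a log2 fold change, computed by the authors by a method not given in the sources used here.

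Log2 ratios used a pseudocount of 0.5 RPKM, a minimum RPKM of 1 in either library and a 2-fold threshold. Counting intervals are exact conditional (Clopper-Pearson) 95% intervals. Whether molecular identifiers entered the counting is not stated, so reads may not be independent molecules, and intervals and floors cover counting error only. A floor of 3 reads equals an RPKM of 0.0558 in light drought and 0.0540 in the control at the median gene length of 1692 bases. No p-value between conditions was computed, with 1 library in each. Members and lists were chosen with earlier results of these data known. Named were members past 2-fold, the highest and lowest kept member of each role group and the 5 most abundant, and further members were named after their values were seen. The 2-fold rule and the intervals were tried on simulated libraries with counting error only and planted 4-fold changes. Variation between trees was not simulated, so the trial says nothing about it. The reference gene table matched 0 of the 108 members and was not used. Pseudocounts, filters, thresholds and scalings were varied. Python 3.11.15, numpy 2.4.6, pandas 2.3.3, scipy 1.17.1 and matplotlib 3.10.9 were used.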

Additional observations from a re-analysis of the deposited data

How the results depend on the processing

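No paired analysis was possible because light drought and control hold 1 library each, which also means that none could be left out. The counts of members at least 2-fold apart (3 higher, 6 lower) gave 7 higher with a pseudocount of 0.1 and 1 higher with a pseudocount of 1, since the pseudocount weighs most on low genes. With equal sums 2 genes were higher and 8 lower, with an RPKM floor of 5 the counts were 2 and 4, and with the all-gene median at 0 they were 2 and 6. The equal sums were set at a larger total than either library had. The unchanged pseudocount and minimum thus weighed less there, and 104 members were kept, against 99 in the main setting. A threshold of 1.5-fold gave 27 higher and 16 lower, and one of 4-fold 0 and 0, both with the main pseudocount. The 4-fold count of lower genes depended on that pseudocount. The log2 ratio of Cs2g13910 was -1.86 in the main setting and -2.52, past 4-fold, with a pseudocount of 0.1. The median of 0.42 lay between 0.36 and 0.46 under the alternatives run. Each move was less than the counting error of a typical member, a wide measure for a median of many genes. A pseudocount cannot change the side of 0 on which a ratio lies, so the share of kept members above 0 was bound to stay at 74.7%. Under the other filters and scalings it lay between 73.1% and 75.3%. Setting the all-gene median to 0 hardly shifts any ratio, since that median was already 0.0024. The amino acid median of -0.09 turned to 0.22 with a minimum RPKM of 5, where fewer genes are kept, and the ratio of Cs3g02440 to -0.0062 with equal sums. Of 62 medians of role groups under alternatives 61 kept their sign and lay within the counting error of a typical member. That measure let sizeable moves pass, such as the starch, sugar and organic acid median, -0.42 in the main setting and -0.59 with equal sums. The nitrogen and cofactor group held no gene at a minimum RPKM of 5. Of the ratios of named genes 170 lay within their own counting error, and 4 of abundant genes moved beyond it with equal sums. Part of these 170 was fixed in advance, since no filter and a minimum RPKM of 5 leave the ratio of a gene unchanged. Equal sums moved the median of all kept genes to -0.041. Of the alternatives added after seeing the data, members without the authors' statistics gave 0 higher and 0 lower at 2-fold, with 66 of 82 ratios above 0, and members with enzyme names gave 35 of 58. The counts of 0 were nearly fixed in advance, since the 20 members with statistics all had deposited fold changes past 2-fold. Without genes that share a reference record or exon bases, 65 of 84 ratios were above 0. Depth limits 18 members with under 50 reads in either library.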

Other observations

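Gene models on the opposite strand covered exon bases of 13 of the 108 members, over 3.66% to 100% of the member's length. For psbP domain-containing protein 7 (Cs3g14130), all of the length is shared with Cs3g14120, which was at RPKM 25.3 in light drought and 26.3 in the control, while the member itself was at 3.56 in light drought and 2.27 in the control. Choline monooxygenase (Cs4g04310) shares 20.8% of its length with Cs4g04300, which was at 256 in light drought and 297 in the control.

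Members were longer than the described non-members, with a median length of 1845 bases against 1596.5, and had a median of 5 exon blocks against 3. A KEGG orthology number was deposited for 36.1% of the members and 19.0% of the described non-members. Terms for chloroplast, plastid, thylakoid or photosynthesis appeared in the deposited gene ontology text of 22 of the 108 members, and of 36 of the 1574 described non-members.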
